A study of Homo sapiens with 12 samples.

Results

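Cancer-testis antigen genes are the members of the MAGEA, MAGEB, MAGEC, SSX, XAGE, PAGE, GAGE and CT45 families with SAGE1, CTAG1B, CTAG2 and PRAME, taken here by symbol. The symbols to take were chosen with earlier results of these data known. Of 95 RefSeq genes with such a symbol, 28 had a probe set that names no other gene, and these 28 are counted below, of 19775 genes measured. A further 33 genes, among them 9 CT45 genes, CTAG1B and 10 GAGE genes, were measured only by probe sets that several genes share, and 34 genes, of which 10 code for protein, had no listed probe set. The 24 shared probe sets are given by family. SSX2IP also begins with the letters of the rule but is a widely expressed gene on chromosome 1 whose protein binds SSX2, so it is described apart. Of the 28 genes, 27 lie on the X chromosome and PRAME lies on chromosome 22.

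The measurements come from the established human glioma line U-87 MG, whose cells here carry a stably transfected short hairpin RNA. The hairpin is either directed at p105, the NF-kB precursor protein made from NFKB1 (shp105 cells), or a control (shControl cells). Both received 100 uM temozolomide (TMZ), a DNA-methylating drug used against glioma, or its solvent DMSO for 16 h. The 4 groups, shp105 with TMZ, shp105 with DMSO, shControl with TMZ and shControl with DMSO, hold 3 arrays each, called biological replicates in the labels. The title of the series sets NF-kB-deficient against NF-kB-proficient cells after TMZ. The labels do not give the number of clones or transfections behind each hairpin, so hairpin and cell line cannot be told apart. The p-values cover the spread among these arrays, which may be technical.

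Cancer-testis genes are normally read in male germ cells and placenta and are held silent in most other tissues, in part by methylation of CG pairs at their promoters. Tumours often read some of them, and their peptides can then be seen by T cells. MAGE proteins bind ubiquitin ligases through a shared domain, SSX proteins are nuclear repressors known from the SS18 fusions of synovial sarcoma, and GAGE, PAGE and XAGE encode related small acidic proteins.

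Levels are log2 values per probe set, so a difference of 1 is a 2-fold difference, and levels of different probe sets cannot be set against each other. A gene was taken as above background when its level passed, on all 3 arrays of at least 1 group, the highest of 27 control probe sets for bacterial sequences. That limit lay between 3.88 and 4.30 on the 12 arrays. Genes were called at an adjusted p under 0.05 in limma's moderated test, with adjustment over all 19775 genes. Errors of differences are standard errors of that fit, over 3 arrays a group.

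NFKB1, the targeted gene, read 7.14, 7.22 and 7.14 in shp105 cells with TMZ and 7.17, 7.27 and 7.16 in shp105 cells with DMSO, against 7.50, 7.45 and 7.30 in shControl cells with TMZ and 7.40, 7.23 and 7.34 in shControl cells with DMSO. It was lower in shp105 cells by -0.25 ± 0.07 in TMZ (adjusted p = 0.0204), while the difference of -0.12 ± 0.07 in DMSO was not called (adjusted p = 0.260). VIM (14.69 to 14.84) and CD44 (12.58 to 13.01) were high on all arrays and GFAP lay between 4.94 and 5.36. S100B stayed under the limit on all 12 arrays, as did the germ cell genes DDX4, DAZL, DPPA5, LIN28A and ZPBP. Of 15 germ cell markers measured, 9 were above background, and 1 was called between the lines in TMZ (TFAP2C, -0.22 ± 0.06, adjusted p = 0.0278) and 0 in DMSO (limma). Of 4 leukocyte markers measured, PTPRC, CD14 and LYZ were under the limit on all arrays and CD3E was above it on all 12 (5.51 to 6.03), without a call between the lines. Of 5 epithelial markers 3 were above background, and 2 were called in TMZ and 3 in DMSO, among them KRT8 (0.80 in TMZ and 0.69 in DMSO) and EPCAM (-0.45 and -0.39). Of 10 markers of glioma lines 9 were above background and 3 (30%, beside 21.1% of all genes in TMZ and 19.9% in DMSO) were called under each treatment. These were CHI3L1, higher in shp105 cells by 2.96 in TMZ and 2.21 in DMSO, FN1 (-0.37 and -0.41) and CD44 (-0.32 and -0.25). Hybridization spike-ins averaged 11.01 to 11.43 on shp105 arrays and 10.57 to 11.01 on shControl arrays.

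The promoters of the genes on which the results turn are printed from the RefSeq promoter windows of GRCh38.p14, 250 bases before to 50 after the start, in the direction of the gene. Capitals mark CG pairs, the letters at which these promoters can be methylated; methylation was not measured here. SAGE1 (chrX:135893466-135893765, plus strand), SSX1 (chrX:48255142-48255441, plus strand) and GAGE1 (chrX:49598763-49599062, plus strand) were higher in shp105 cells. MAGEC1 (chrX:141903644-141903943, plus strand) and MAGEC2 (chrX:142205241-142205540, minus strand) are neighbours that differed in opposite directions.
SAGE1: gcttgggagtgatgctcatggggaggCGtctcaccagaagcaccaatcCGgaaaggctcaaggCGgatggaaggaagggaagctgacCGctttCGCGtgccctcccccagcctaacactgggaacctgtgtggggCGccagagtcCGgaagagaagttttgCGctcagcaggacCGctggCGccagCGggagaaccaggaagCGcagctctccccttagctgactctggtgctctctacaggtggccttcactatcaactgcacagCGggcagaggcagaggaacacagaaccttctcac
SSX1: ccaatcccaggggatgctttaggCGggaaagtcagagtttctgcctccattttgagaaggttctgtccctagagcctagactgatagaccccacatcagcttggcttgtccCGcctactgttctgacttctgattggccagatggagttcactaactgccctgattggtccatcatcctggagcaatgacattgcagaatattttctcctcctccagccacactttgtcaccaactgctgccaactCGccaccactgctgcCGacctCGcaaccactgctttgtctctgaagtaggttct
GAGE1: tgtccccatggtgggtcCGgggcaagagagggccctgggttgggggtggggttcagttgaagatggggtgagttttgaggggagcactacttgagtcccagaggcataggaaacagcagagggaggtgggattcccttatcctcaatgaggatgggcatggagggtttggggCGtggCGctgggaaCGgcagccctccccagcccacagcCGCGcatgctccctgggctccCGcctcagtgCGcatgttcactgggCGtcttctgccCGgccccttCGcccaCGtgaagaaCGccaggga
MAGEC1: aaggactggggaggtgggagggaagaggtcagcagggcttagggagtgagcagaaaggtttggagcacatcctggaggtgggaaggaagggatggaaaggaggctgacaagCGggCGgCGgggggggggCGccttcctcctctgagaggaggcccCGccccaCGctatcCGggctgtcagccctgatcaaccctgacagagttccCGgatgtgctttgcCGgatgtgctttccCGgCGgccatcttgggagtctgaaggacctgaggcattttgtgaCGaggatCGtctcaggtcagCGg
MAGEC2: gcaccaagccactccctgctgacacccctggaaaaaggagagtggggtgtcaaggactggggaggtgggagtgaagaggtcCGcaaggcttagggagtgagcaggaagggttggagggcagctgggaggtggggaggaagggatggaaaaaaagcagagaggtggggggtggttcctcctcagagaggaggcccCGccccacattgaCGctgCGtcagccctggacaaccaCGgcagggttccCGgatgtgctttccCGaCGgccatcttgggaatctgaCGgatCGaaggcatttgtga

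These windows hold 14 CG pairs in SAGE1, 5 in SSX1, 13 in GAGE1, 14 in MAGEC1 and 10 in MAGEC2. A window was listed for 24 of the 28 genes, with a median of 10 CG pairs, beside a median of 14 over 27305 promoter windows. The median was 13 (5 to 21) in the 14 windows of genes above background and 6 (1 to 21) in the 10 windows of the other genes. Those 10 include the 6 measured MAGEB genes, so family and level cannot be told apart, and a link of CG pairs with level was not tested. Where a gene had several windows, the first listed was used. The ETS core CCGGAA, searched on both strands, was present in 4 of the 24 windows (16.7%, beside 17.6% of all windows), with 2 copies in SAGE1. TATAAA, searched on both strands, was in 0 of the 24 windows, beside 12% of all. The NF-kB motif was in 1 window, that of MAGEB18, beside 5.72% of all. Such a match describes letters only.

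In U-87 MG cells 17 of the 28 cancer-testis genes were above background in at least 1 group, a share to be read beside 76.8% of all genes. In shp105 cells 16 of them passed the limit on all 3 arrays under TMZ and 16 under DMSO, and in shControl cells 13 did under TMZ and 13 under DMSO. All 4 groups shared 12: MAGEA1, MAGEA6, MAGEA11, MAGEA12, MAGEC1, MAGEC2, SSX1, SSX3, CTAG2, PAGE5, PRAME and XAGE2. The other 5 were SAGE1, SSX2B, GAGE1, PAGE1 and XAGE3. With the 95th percentile of 82 olfactory receptor genes as a stricter limit (4.95 to 5.29), 12 genes stayed above. These are not the 12 just named, since PRAME and XAGE2 lay under that limit on all arrays.

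The 11 genes that did not pass were MAGEA4, MAGEA8, MAGEA10, all 6 measured MAGEB genes (MAGEB1, MAGEB2, MAGEB3, MAGEB4, MAGEB6 and MAGEB18), MAGEC3 and PAGE4. Their values lay between 2.43 and 4.58 over the 12 arrays. MAGEB genes, which lie apart from the MAGEA and MAGEC clusters on the short arm of the X chromosome, read 2.43 to 4.31 and gave no call in any comparison. The heat map shows each of the 28 genes across the arrays.

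**Figure D1:**
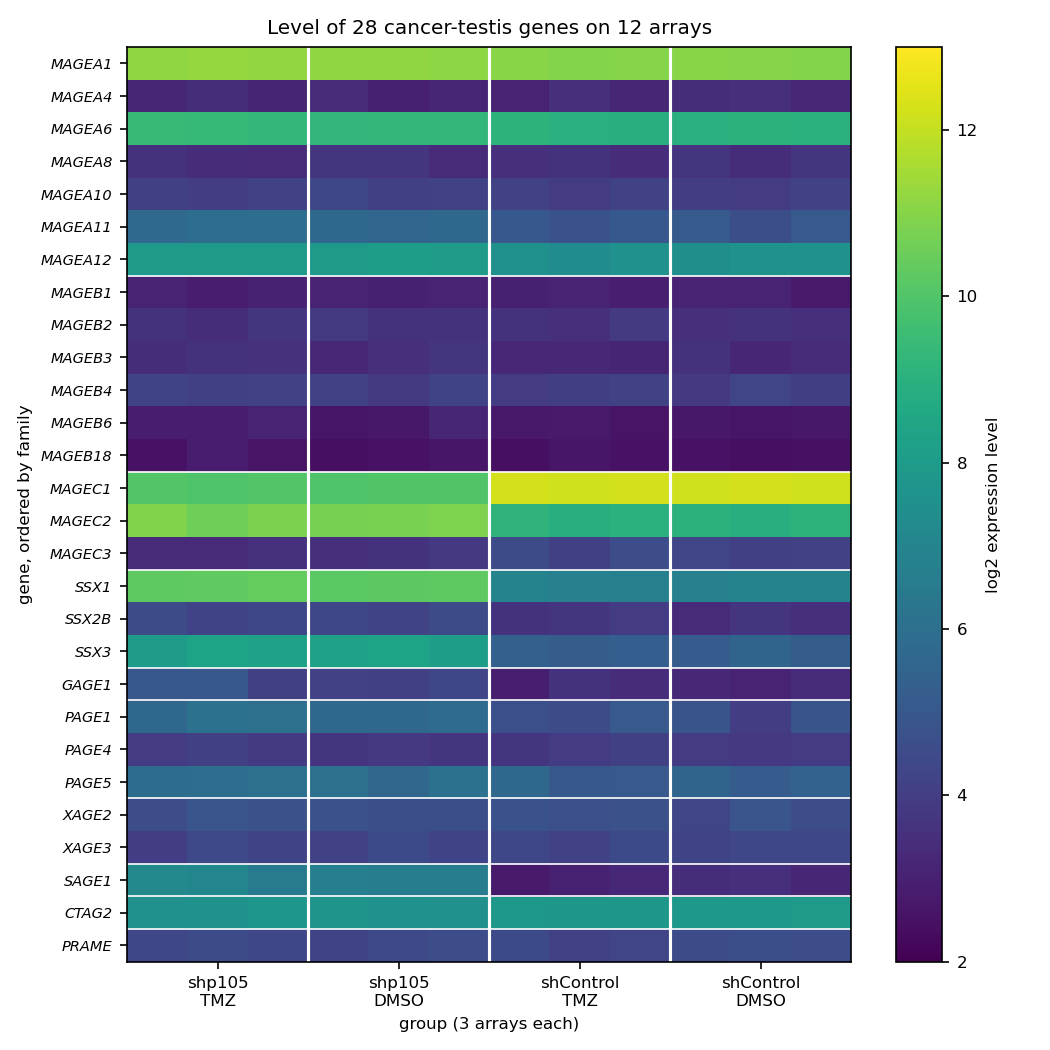
Log2 level of the 28 cancer-testis genes (rows, by family) on the 12 arrays (columns, 3 per group), with colour for the level. MAGEC1 is brighter in the shControl columns (12.18 to 12.30) and MAGEC3 faintly so, while SSX1, SSX3, SAGE1 and MAGEC2 are brighter in the shp105 columns.

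Between the lines, the cancer-testis genes that were called were mostly higher in shp105 cells. In TMZ 14 of 28 were called, 12 higher and 2 lower in shp105 cells, beside 21.1% of all genes called, of which 10.1% of all were higher and 11% lower. In DMSO 15 of 28 were called, 12 higher and 3 lower, beside 19.9% of all genes, 8.34% higher and 11.6% lower. The same 14 genes were called under both treatments and in the same direction, and CTAG2 was the further one in DMSO. Both comparisons come from 1 fit whose spread is shared over all 12 arrays, so their calls are not independent. Because the set was chosen with earlier results of these data known, its counts describe it and are no test of it. The median difference of the 28 genes was 0.16 in TMZ and 0.14 in DMSO, beside -0.01 and -0.01 over all genes. Of 669 other genes on the X chromosome, 150 (22.4%) were called in TMZ and 137 (20.5%) in DMSO, with 70 and 58 of them higher.

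Fitted differences of at least 2-fold were found in 7 genes in TMZ (6 higher and 1 lower, beside 1.75% of all genes) and in 6 in DMSO (5 higher and 1 lower, beside 1.77%). These were SAGE1, SSX1, SSX3, PAGE1, MAGEC2 and MAGEC1 under both treatments, and GAGE1 in TMZ. SAGE1 and GAGE1 were at background in shControl cells, and the bound for GAGE1 in TMZ is 1.55-fold, under 2-fold. Spike-in levels differed between the lines as given above and nearly separate them. In a fit with the spike-in mean as a covariate, spike-in level and line can therefore hardly be told apart. Neither a kept nor a lost call there says where a difference comes from. With the spike-in mean as a covariate, 6 genes stayed called in TMZ and 5 in DMSO: SAGE1, SSX1, SSX3, MAGEC1 and MAGEC2 under both, with MAGEA12 in TMZ. Of the other called differences 17 lost their call, of which 14 stayed within 1.5 times their size, such as MAGEA11 in TMZ (0.92 with the covariate and 0.95 without) and PAGE1 in TMZ (1.07 and 1.19). The 3 that shrank further were GAGE1 in TMZ (0.33), CTAG2 in DMSO (-0.055) and MAGEC3 in DMSO (-0.25), and GAGE1 in DMSO changed sign (-0.47, adjusted p = 0.601). In bulk RNA, fewer cells that read a gene and less RNA per cell cannot be told apart.

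**Figure D2:**
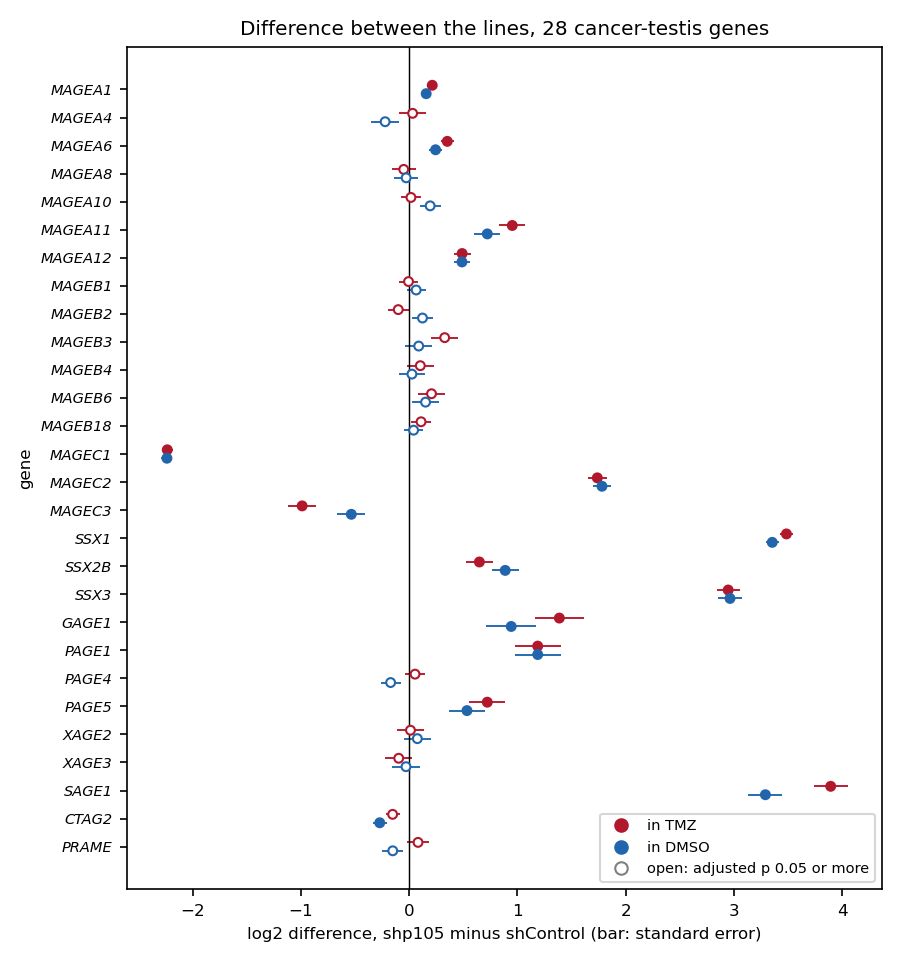
Log2 difference, shp105 minus shControl (x axis), of the 28 genes (rows) in TMZ (red) and DMSO (blue), with standard errors as bars and open symbols where the adjusted p was 0.05 or more. SAGE1, SSX1 and SSX3 lie farthest to the right (2.95 to 3.89) and MAGEC1 farthest to the left (-2.24 and -2.23).

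SAGE1, which encodes sarcoma antigen 1, was clearly measured in shp105 cells and at background in shControl cells. Its levels were 7.17, 7.04 and 6.57 in shp105 cells with TMZ, against 2.79, 3.03 and 3.29 in shControl cells with TMZ. In DMSO they were 6.76, 6.62 and 6.61 in shp105 cells, against 3.43, 3.49 and 3.19 in shControl cells. All 6 shControl arrays were under the background limit and all 6 shp105 arrays were far above it. The fitted differences were 3.89 ± 0.16 in TMZ (adjusted p = 1.2e-08) and 3.29 ± 0.16 in DMSO (adjusted p = 4.83e-08). Because shControl levels were not above background, the folds are bounds: SAGE1 was at least 7.29-fold higher in shp105 cells in TMZ and at least 5.63-fold higher in DMSO, with the limit in place of the dimmer value. Such bounds here and below are taken on group means and do not allow for the spread among arrays.

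CT45 genes, a family of near-identical copies next to SAGE1, gave the largest differences among the probe sets of these families. The 2 shared probe sets each list 9 CT45 genes, so the copies cannot be told apart. The first read 8.90, 9.04 and 9.11 in shp105 cells with TMZ and 9.03, 9.05 and 8.97 with DMSO, against 2.85, 3.22 and 2.92 in shControl cells with TMZ and 3.00, 3.16 and 2.86 with DMSO. It was under the limit on all 6 shControl arrays, so its difference of 6.02 ± 0.10 in TMZ (adjusted p = 7.81e-12, over 54675 probe sets) and 6.01 ± 0.10 in DMSO (adjusted p = 8.28e-12) bounds a fold of at least 31.0 in TMZ and at least 28.8 in DMSO. The second read 9.52 to 9.83 on the 6 shp105 arrays and 3.81 to 4.59 on the 6 shControl arrays, with differences of 5.52 ± 0.13 in TMZ and 5.06 ± 0.13 in DMSO. CT45A10 and SAGE1 start 272 bases apart on opposite strands, and their promoter windows overlap by 229 bases. CT45A10 is 1 of the 9 genes on each set.

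Measured genes beside SAGE1 that are no members differed less. INTS6L, the nearest measured gene on one side, was lower in shp105 cells by -0.76 in TMZ and -0.68 ± 0.08 in DMSO. MMGT1, on the other side, was lower by -0.17 in TMZ (adjusted p = 0.0426) and its -0.09 ± 0.05 in DMSO was not called (adjusted p = 0.296). Over the 17 genes above background, 61 neighbouring genes that are no members were measured (3 on each side), of which 13 were called in TMZ and 13 in DMSO (21.3% each, near the 21.1% and 19.9% of all genes). Of these 61, 1 differed by at least 2-fold in DMSO, FOXR2 near PAGE5 (1.05 ± 0.13), which was not above background.

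All 3 SSX genes with a probe set of their own were higher in shp105 cells under both treatments. SSX1 read 10.27, 10.30 and 10.41 in shp105 cells with TMZ, against 6.92, 6.81 and 6.80 in shControl cells with TMZ. In DMSO it read 10.20, 10.22 and 10.26 in shp105 cells, against 6.78, 6.92 and 6.92 in shControl cells. The groups of the lines were far apart, by 3.48 ± 0.06 in TMZ (adjusted p = 1.48e-11, 11.2-fold) and 3.35 ± 0.06 in DMSO (adjusted p = 1.79e-11, 10.2-fold). That probe set ends in _x_at, a mark of probes that may match other transcripts. The second SSX1 set was under the limit on all shControl arrays (2.85 to 3.58) and above it on all shp105 arrays (5.44 to 6.32), at least 3.63-fold higher in TMZ and at least 3.14-fold higher in DMSO.

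SSX3 read 8.05, 8.39 and 8.28 in shp105 cells with TMZ, against 5.35, 5.24 and 5.29 in shControl cells with TMZ. In DMSO it read 8.28, 8.40 and 8.15 in shp105 cells, against 5.18, 5.53 and 5.23 in shControl cells. The difference was 2.95 ± 0.11 in TMZ (adjusted p = 4.92e-09) and 2.96 ± 0.11 in DMSO (adjusted p = 5.15e-09), without overlap. All probe sets of SSX3, the one used here included, are of the _x_at kind. Its other sets gave smaller differences, all called. These were 1.60 ± 0.16 and 0.85 ± 0.10 in TMZ and 0.98 ± 0.16 and 0.92 ± 0.10 in DMSO. SSX2B lay near background, at 4.22 to 4.57 in shp105 cells and 3.34 to 3.95 in shControl cells, and was higher by 0.65 ± 0.12 in TMZ (adjusted p = 0.00260) and 0.89 ± 0.12 in DMSO (adjusted p = 0.000295). In TMZ 1 of 3 shControl arrays passed the limit. In DMSO all 3 were under it, so that the fold there is bounded at 1.17 or more.

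The 8 shared SSX probe sets, which list SSX2, SSX2B, SSX3, SSX4, SSX4B, SSX5 and SSX7, were all called higher in both comparisons. Of these, 6 differed by at least 2-fold under both treatments, by 1.71 to 3.27 in TMZ and 1.70 to 3.29 in DMSO. Their levels ran from 6.13 to 10.41 on shp105 arrays and from 4.30 to 7.27 on shControl arrays. The set for SSX4 and SSX4B that ends in _s_at was at background in both lines, at 2.98 to 3.62 in shp105 cells and 2.70 to 2.83 in shControl cells. The signals of close copies can enter each other's sets, so which SSX copies were read beyond SSX1 cannot be told from these values.

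GAGE genes form a tandem array of nearly the same sequence, and their promoter windows shared a median of 98% of bases (78% to 100% over 66 pairs). The 4 shared GAGE probe sets, which list 5 to 13 genes each, read 10.59 to 10.95 in shp105 cells with TMZ, against 6.82 to 7.43 in shControl cells with TMZ. In DMSO they read 10.50 to 10.72 in shp105 cells, against 6.92 to 7.33 in shControl cells. The family signal was therefore above background in both lines and higher in shp105 cells by 3.66 to 3.80 in TMZ and 3.39 to 3.56 in DMSO, all called. GAGE1 alone, by its own set, was dim, at 5.01, 4.98 and 4.10 in shp105 cells with TMZ, against 2.92, 3.60 and 3.40 in shControl cells with TMZ. Its difference was 1.39 ± 0.23 in TMZ (adjusted p = 0.00102), a fold of at least 1.55, and 0.94 ± 0.23 in DMSO (adjusted p = 0.0122), a fold of at least 1.01, since all shControl arrays were under the limit. In DMSO 2 of 3 shp105 arrays passed the limit, so the bound of 1.01 there holds for the means only. Without shControl DMSO replicate 2 the call was lost (adjusted p = 0.0507).

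PAGE and XAGE genes showed smaller gaps. PAGE1 read 5.71, 6.10 and 6.04 in shp105 cells with TMZ, against 4.70, 4.52 and 5.06 in shControl cells with TMZ. In DMSO it read 5.72, 5.73 and 5.84 in shp105 cells, against 4.87, 3.99 and 4.86 in shControl cells. The lines did not overlap, and the difference was 1.19 ± 0.21 under each treatment (adjusted p = 0.00182 in TMZ and 0.00189 in DMSO). PAGE5 read 5.64 to 6.09 in shp105 cells and 5.01 to 5.66 in shControl cells, so the lines overlapped at their edges. It was higher by 0.72 ± 0.17 in TMZ (adjusted p = 0.00902) and 0.53 ± 0.17 in DMSO (adjusted p = 0.0436). The DMSO call of PAGE5 was lost without any 1 of 8 arrays, namely each shControl DMSO array, shp105 DMSO replicates 1 and 3 and each shp105 TMZ array (adjusted p = 0.0549 to 0.153).

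The probe set of XAGE1A and XAGE1B read 6.67 to 7.13 in shp105 cells and 4.41 to 5.19 in shControl cells. It was higher by 1.93 ± 0.21 in TMZ and 2.08 ± 0.21 in DMSO (adjusted p = 5.73e-05 and 2.93e-05). XAGE2, at 4.32 to 4.91, passed the limit on all arrays, and XAGE3, at 3.98 to 4.49, on all DMSO arrays and on 2 of 3 arrays in each TMZ group. Neither gave a call. PAGE4 (3.63 to 4.08) was not above background.

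**Figure D3:**
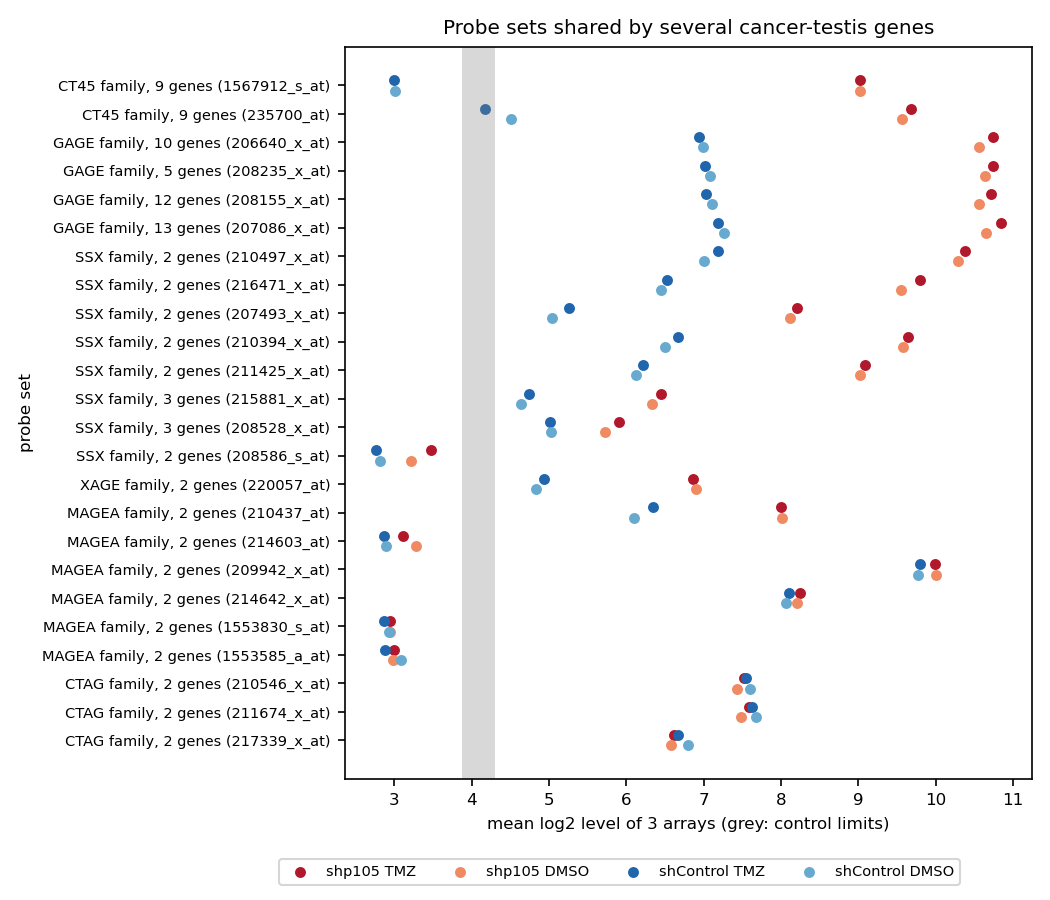
Mean log2 level over 3 arrays (x axis) of the 24 probe sets that several cancer-testis genes share (rows), for the 4 groups, with the control limits of the 12 arrays as a grey band. The CT45, GAGE and most SSX sets lie far to the right in both shp105 groups, and the group means of each CTAG set lie close together.

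Over all 24 shared probe sets, 16 were called higher and 0 lower in TMZ, and 16 higher and 0 lower in DMSO. The shares of all 54675 probe sets were 12.8% in TMZ (6.36% higher and 6.47% lower) and 12.1% in DMSO (5.65% higher and 6.4% lower). Of the 24, 20 were above background and 16 end in _x_at. The other called set was that of MAGEA9 and MAGEA9B, at 7.83 to 8.23 in shp105 cells and 5.75 to 6.50 in shControl cells, which was higher by 1.65 ± 0.17 in TMZ and 1.90 ± 0.17 in DMSO. The 2 sets of MAGEA2 and MAGEA2B were not above background and not called, nor were the 2 sets of MAGEA5P called.

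The MAGEC genes lie side by side on the X chromosome and differed between the lines in opposite directions. MAGEC1, a cancer-testis antigen known from myeloma, read 10.04, 9.98 and 10.05 in shp105 cells with TMZ, against 12.30, 12.20 and 12.27 in shControl cells with TMZ. In DMSO it read 9.96, 9.99 and 10.00 in shp105 cells, against 12.18, 12.28 and 12.21 in shControl cells. It was lower in shp105 cells by -2.23 ± 0.05 in TMZ (adjusted p = 6.79e-11, 4.71-fold) and -2.24 ± 0.05 in DMSO (adjusted p = 6.39e-11, 4.72-fold), and remained well above background in both lines.

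MAGEC2, whose protein binds the ubiquitin ligase TRIM28, read 10.91, 10.57 and 10.84 in shp105 cells with TMZ, against 9.13, 8.96 and 9.01 in shControl cells with TMZ. In DMSO it read 10.77, 10.80 and 10.87 in shp105 cells, against 9.05, 8.94 and 9.11 in shControl cells. It was higher by 1.74 ± 0.09 in TMZ (adjusted p = 7.22e-08, 3.33-fold) and 1.78 ± 0.09 in DMSO (adjusted p = 5.94e-08, 3.44-fold). A second MAGEC2 set was under the limit on all 12 arrays (3.08 to 3.53), with differences of -0.068 in TMZ and 0.11 in DMSO that were not called. Aligned over their whole length, the windows of the MAGEC promoters share 44.7% to 55.0% of bases, beside 40.7% to 50.7% among MAGEB windows. Stretches shared at an offset lower this score.

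MAGEC3 was dim, at 3.33, 3.33 and 3.58 in shp105 cells with TMZ, against 4.53, 4.10 and 4.58 in shControl cells with TMZ. In DMSO it read 3.52, 3.60 and 3.83 in shp105 cells, against 4.32, 4.11 and 4.13 in shControl cells. It passed the limit on 2 of 3 arrays in each shControl group and on 0 shp105 arrays. The differences were -0.99 ± 0.13 in TMZ (adjusted p = 0.000181) and -0.53 ± 0.13 in DMSO (adjusted p = 0.0120). On group means only, these bound folds of at least 1.27 in TMZ and at least 1.17 in DMSO lower in shp105 cells. The DMSO call was lost without shControl DMSO replicate 1 (adjusted p = 0.0518) or shp105 DMSO replicate 1 (0.0527).

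**Figure D4:**
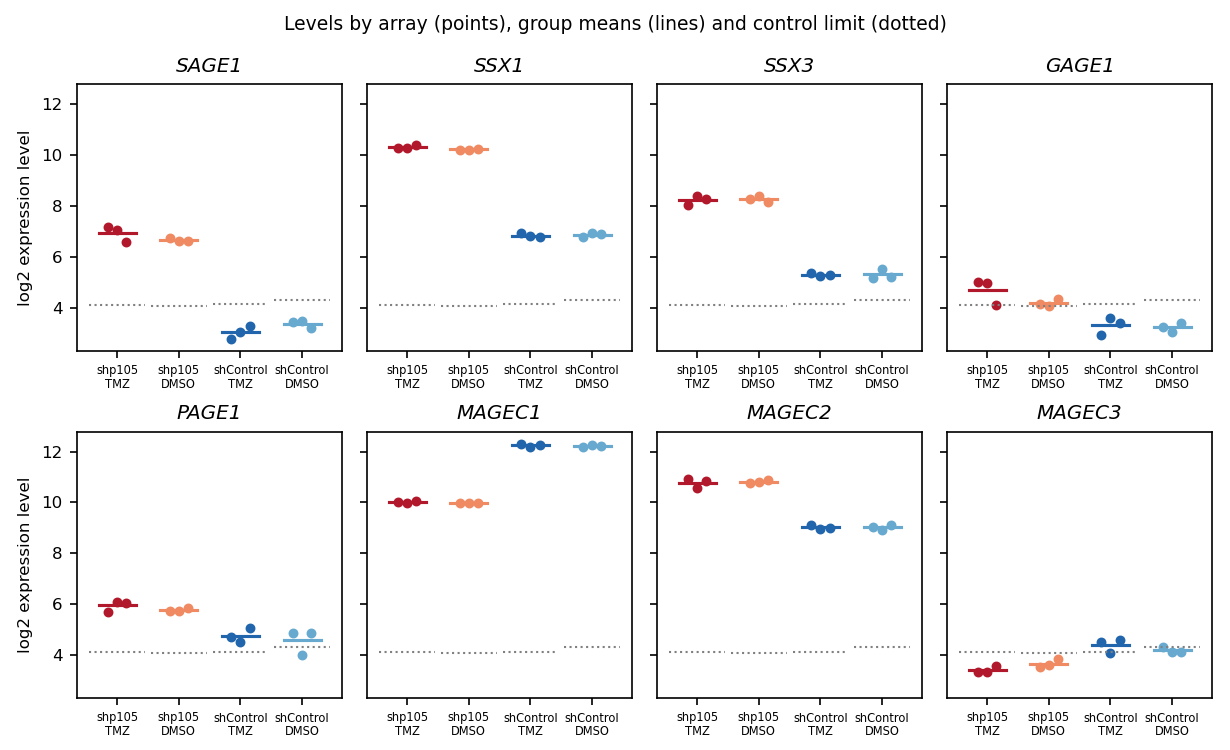
Log2 level on each array (points) of 8 cancer-testis genes in the 4 groups, with group means as lines and the highest control limit of each group dotted. SAGE1 and GAGE1 lie under the limit in shControl cells, MAGEC1 is higher there, and within a line the TMZ and DMSO arrays lie close together.

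MAGEA1, MAGEA6, MAGEA11 and MAGEA12 were above background in both lines and higher in shp105 cells by less than 2-fold. MAGEA1, the antigen by which this class was found, read 11.17, 11.25 and 11.20 in shp105 cells with TMZ, against 11.03, 10.96 and 10.98 in shControl cells with TMZ. It was higher by 0.21 ± 0.05 in TMZ (adjusted p = 0.00718) and 0.16 ± 0.05 in DMSO (adjusted p = 0.0373). The DMSO call of MAGEA1 was lost without any 1 of 8 arrays, namely each shControl DMSO array, each shp105 DMSO array and shControl TMZ replicates 1 and 3 (adjusted p = 0.0519 to 0.117). With replicate number as a block it was lost too (adjusted p = 0.0652).

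MAGEA6 (8.90 to 9.40 over the 12 arrays) was higher in shp105 cells by 0.35 ± 0.06 in TMZ (adjusted p = 0.00151) and 0.24 ± 0.06 in DMSO (adjusted p = 0.0153). The DMSO call of MAGEA6 was lost without shControl DMSO replicate 1 (adjusted p = 0.0586), shp105 DMSO replicate 2 (0.0502) or shp105 DMSO replicate 3 (0.0546). The set shared by MAGEA6 and MAGEA3, whose proteins also bind TRIM28, was at 9.71 to 10.08 and its differences of 0.20 ± 0.08 in TMZ and 0.24 ± 0.08 in DMSO were not called (adjusted p = 0.134 and 0.0743). MAGEA12 was higher by 0.49 ± 0.08 under each treatment (adjusted p = 0.000777 in TMZ and 0.000812 in DMSO). MAGEA11, known as a co-regulator of the androgen receptor, read 5.60 to 5.97 in shp105 cells and 4.64 to 5.13 in shControl cells, and was higher by 0.95 ± 0.12 in TMZ (adjusted p = 0.000148) and 0.72 ± 0.12 in DMSO (adjusted p = 0.00119).

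CTAG2 was lower in shp105 cells in DMSO, and PRAME gave no call. CTAG2, the relative of CTAG1B that encodes the antigen LAGE-1, read 7.56, 7.66 and 7.79 in shp105 cells with TMZ, against 7.86, 7.81 and 7.80 in shControl cells with TMZ. It was lower in shp105 cells by -0.27 ± 0.06 in DMSO (adjusted p = 0.0102), and its -0.15 ± 0.06 in TMZ was not called (adjusted p = 0.121), but was without shp105 TMZ replicate 3 (-0.21, adjusted p = 0.0326). A second CTAG2 set was not called in either (0.11 ± 0.12 in TMZ and -0.29 ± 0.12 in DMSO). The 3 sets shared by CTAG1A and CTAG1B, which encode NY-ESO-1, read 6.41 to 7.72 on the 12 arrays and gave no call. PRAME, a substrate receptor of a ubiquitin ligase, read 4.19 to 4.66, near the limit, with differences of 0.08 ± 0.10 in TMZ and -0.15 ± 0.10 in DMSO that were not called. SSX2IP, at 9.31 to 9.76, was lower in shp105 cells by -0.22 ± 0.07 in TMZ (adjusted p = 0.0315) and -0.26 ± 0.07 in DMSO (adjusted p = 0.0162).

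Temozolomide gave no call among the cancer-testis genes. In shp105 cells limma called 0 of 28, beside 0.865% of all genes, and 2 had an unadjusted p under 0.05. In shControl cells it called 0 of 28, beside 0.369% of all genes, and 1 had an unadjusted p under 0.05. The responses of the 28 genes lay between -0.24 and 0.51 in shp105 cells and between -0.33 and 0.24 in shControl cells. None of the 24 shared sets was called either (0 of 24 in each line, beside 0.185% of probe sets in shp105 cells and 0.113% in shControl cells, with 3 and 1 under an unadjusted p of 0.05).

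The members with the smallest p in shp105 cells were PAGE4 (0.25 ± 0.09, adjusted p = 0.222), GAGE1 (0.51 ± 0.23, adjusted p = 0.303), MAGEC3 (-0.24 ± 0.13, adjusted p = 0.395), MAGEA11 (0.22 ± 0.12, adjusted p = 0.411) and SAGE1 (0.27 ± 0.16, adjusted p = 0.430). In shControl cells they were PRAME (-0.26 ± 0.10, adjusted p = 0.348), SAGE1 (-0.33 ± 0.16, adjusted p = 0.462), SSX2B (0.24 ± 0.12, adjusted p = 0.509), MAGEC3 (0.22 ± 0.13, adjusted p = 0.579) and MAGEA12 (-0.13 ± 0.08, adjusted p = 0.595). Among genes well above background, SSX1 responded by 0.10 ± 0.06 in shp105 cells and -0.03 ± 0.06 in shControl cells, and MAGEC1 by 0.04 ± 0.05 and 0.03 ± 0.05.

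The difference of the TMZ responses between the lines was called in 0 of 28 genes and in 0% of all genes, with 2 of the 28 under an unadjusted p of 0.05. These were SAGE1 (0.60 ± 0.22, adjusted p = 0.739) and MAGEC3 (-0.45 ± 0.18, adjusted p = 0.769). The next were PAGE4 (0.23 ± 0.13, adjusted p = 0.831), PRAME (0.23 ± 0.14, adjusted p = 0.837) and MAGEB2 (-0.22 ± 0.14, adjusted p = 0.853).

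**Figure D5:**
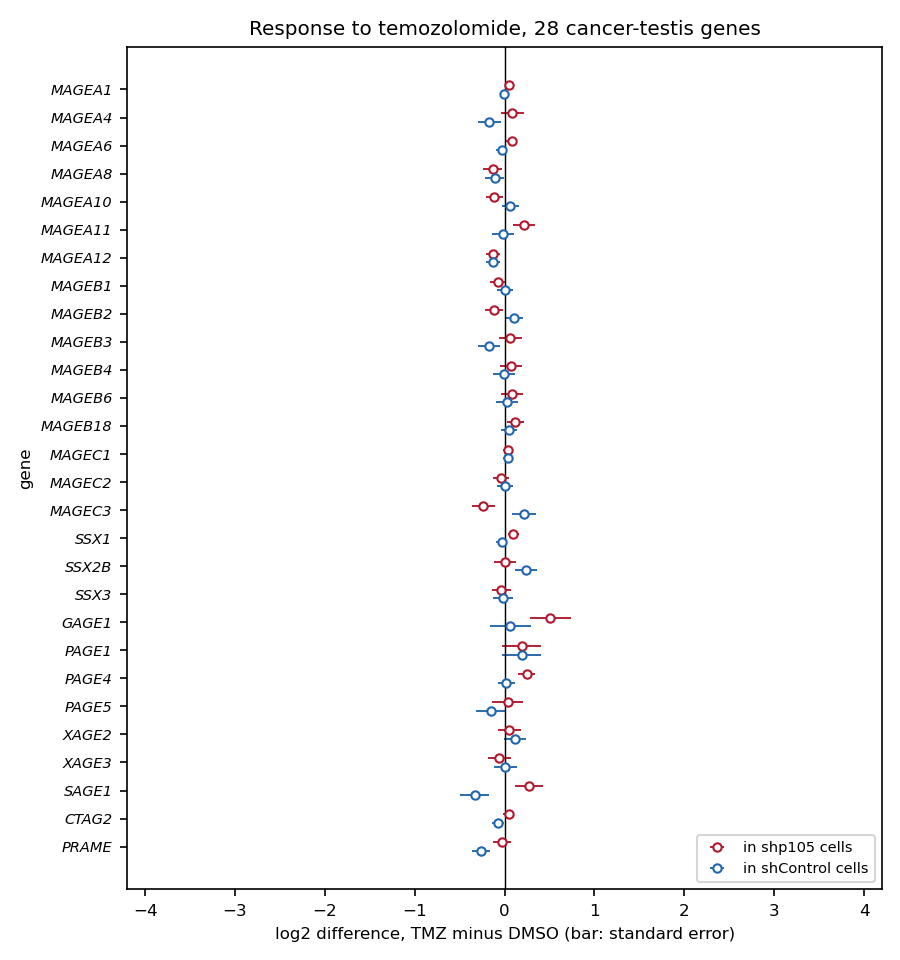
Log2 difference, TMZ minus DMSO (x axis), of the 28 genes in shp105 cells (red) and shControl cells (blue), with standard errors as bars; all symbols are open because 0 genes were called. All values lie between -0.33 and 0.51.

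Related genes outside the symbol rule are read beside the 21.1% of all genes called in TMZ and 19.9% in DMSO. Of 52 other X-linked germline genes, 28 were measured, with 4 higher and 3 lower in shp105 cells in TMZ (25% called) and 4 higher and 4 lower in DMSO (28.6%), near those shares. CT55, a testis gene, was higher by 2.85 ± 0.16 in TMZ and 2.44 ± 0.16 in DMSO, and VCX2 by 1.45 ± 0.15 and 1.29 ± 0.15. PLAC1, a placental gene, was lower by -1.72 ± 0.07 and -1.67 ± 0.07, and IL13RA2, a receptor chain known from glioma, by -1.22 ± 0.12 and -1.24 ± 0.12. Of 49 measured autosomal germline genes (of 54), 1 was higher and 6 lower in TMZ (14.3%) and 1 higher and 4 lower in DMSO (10.2%), under those shares. TMEM108 (-1.02 ± 0.06 in TMZ and -1.14 ± 0.06 in DMSO) and SPA17 (-0.64 ± 0.05 and -0.66 ± 0.05) were lower, and DPPA2 was higher (0.57 ± 0.12 and 0.48 ± 0.12).

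Of 9 measured MAGE genes that most tissues read (of 11), 2 were higher in TMZ, and 1 was higher and 1 lower in DMSO (22.2% each), with NDN at 0.38 ± 0.06 and 0.31 ± 0.06. Of 16 measured partners of MAGE and PRAME proteins (of 19), 2 were higher and 1 lower in TMZ and 1 higher and 2 lower in DMSO (18.8% each). LNX1, a ubiquitin ligase, was higher by 1.07 ± 0.08 in TMZ and 0.64 ± 0.08 in DMSO. Of 39 measured genes of DNA methylation and silencing (of 40), 5 were higher and 5 lower in TMZ (25.6%) and 4 higher and 5 lower in DMSO (23.1%), which is near the share of all genes, so the list as a whole gave no result of its own. MORC2, a silencing factor, was lower (-0.54 ± 0.06 and -0.48 ± 0.06). DNMT3B, a DNA methyltransferase, was higher (0.47 ± 0.09 and 0.33 ± 0.09). UHRF1, which brings DNMT1 to newly copied DNA, was lower (-0.34 ± 0.07 and -0.36 ± 0.07). In TMZ, ATF7IP was higher (0.36 ± 0.05) and EED lower (-0.40 ± 0.07). In DMSO, MBD2 was lower (-0.27 ± 0.06) and TDG higher (0.35 ± 0.10). With the spike-in mean as a covariate, 1 gene of this list was called under each treatment, in a fit that can hardly tell spike-in level and line apart. For TMZ minus DMSO within shp105 cells, limma called MORC4 (0.33 ± 0.05, adjusted p = 0.0184) and LNX1 (0.43 ± 0.08, adjusted p = 0.0422) higher with TMZ. CBX5 was called higher with TMZ than with DMSO within shp105 cells (0.29 ± 0.05, adjusted p = 0.0254) and within shControl cells (0.28 ± 0.05, adjusted p = 0.0441). Of all genes, 0.865% were called in shp105 cells and 0.369% in shControl cells. All these list calls were lost with the spike-in covariate. Those of LNX1 and CBX5 were also lost with replicate number as a block or with probe sets averaged.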

How the data were processed

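RNA of 12 cultures was measured on Affymetrix expression arrays. The deposited values are log2 levels per probe set, made with RMA and Affymetrix Power Tools per the submitters' processing notes; no version, build or filter is given in the sources used here. The table holds 54675 probe sets, of which 41097 name 1 gene, 1801 several and 11777 none in GEO's platform annotation. For each of 19775 genes, the single-gene probe set with the highest mean stood for the gene, without a filter on dim genes. Symbols, positions and promoter windows follow RefSeq (GRCh38.p14).

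One limma fit (3.58.1, R 4.3.3; lmFit and eBayes, 8 residual degrees of freedom) of the 4 group means gave 5 comparisons: the TMZ response of both lines, the difference between the lines in TMZ and in DMSO, and the difference of the responses. Tests are 2-sided with Benjamini-Hochberg adjustment. A second fit over all probe sets served the shared sets and was added after the data were seen. Where a dimmer group lay under the control limit on all 3 arrays, a fold is the brighter mean over the mean limit, without allowance for the spread among arrays. The fit was tested on simulated data. Members were taken by symbol, but the symbols to take and the lists were chosen with earlier results of these data known. Named are members above background or called, and the 5 members with the smallest p where fewer than 5 were called. Of each other list, up to 4 called genes per line comparison and the genes called under TMZ are named. NFKB1 and neighbours are named as well. The number of arrays limits the precision, and array medians lay between 5.04 and 5.09. Within groups, arrays correlated at 0.997 to 0.998 over genes, and 0 pairs were identical.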

Additional observations from a re-analysis of the deposited data

How the results depend on the processing

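Directions and calls of the cancer-testis genes were recomputed under other scalings, filters, thresholds and fits. Counts between the lines moved by more than 1.5 times under 4 of them. Shp105 minus shControl in TMZ gave 7 genes at 2-fold or more, 8 with genes under the median level left out (8 members then remained tested) and 6 with the spike-in mean as a covariate, against 14. In DMSO the counts were 9 at an adjusted p under 0.01, 6 at 2-fold, 8 with dim genes left out and 5 with the covariate, against 15. Leaving out 1 array at a time gave 14 to 15 genes in TMZ and 11 to 15 in DMSO. Of 29 called differences, 17 lost their call with the covariate, 14 of them within 1.5 times their size. A further 1 turned, GAGE1 in DMSO (-0.47, adjusted p = 0.601). The spike-in mean nearly separates the lines, so this fit can hardly tell spike-in level and line apart, and the cause was not tested. MAGEC2 in TMZ turned by its second probe set, which is at background (-0.068, adjusted p = 0.754). Without _x_at sets 10 genes were called in each line comparison. The TMZ comparisons gave 0 calls under every setting run. Genes above background numbered 12 to 25 under other limits, against 17. Of 100 counts of the other lists, 23 moved. With the covariate, calls between the lines fell from 10 to 1 (TMZ) and 9 to 1 (DMSO) for silencing genes. For X-linked germline genes they fell from 7 to 4 and 8 to 3, and for autosomal ones from 7 to 2 and 5 to 2. Under each treatment they fell from 3 to 1 for partners and from 2 to 0 for widely read MAGE genes.

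Replicate numbers shared between groups showed little likeness: 18 correlations of their deviations lay between -0.14 and 0.12, with 2 over 0.1. The labels do not say whether cultures of the same number were made together, and these correlations cannot decide it. With replicate number as a block, 14 genes were called in TMZ and 14 in DMSO, without MAGEA1 in DMSO (adjusted p = 0.0652).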
